A study of Bos taurus with 15 samples.

Results

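Transcripts of 9 enzymes or enzyme subunits of the tricarboxylic acid cycle were measured in the subcutaneous adipose tissue of periparturient dairy cows. The genes were CS, IDH3A, IDH3B, OGDH, SUCLG1, SDHA, SDHB, FH and MDH2. The rule takes them by name and uses no measured value, although earlier results of these data were known when the list was made. All 9 of 9 symbols were found among the 13896 genes of the deposited tables.

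The cycle runs in the mitochondrial matrix and oxidises the acetyl group of acetyl-CoA to carbon dioxide, with electrons passed on to the respiratory chain. Citrate synthase (CS) opens it by joining acetyl-CoA to oxaloacetate. Isocitrate dehydrogenase 3 (IDH3A is its catalytic subunit and IDH3B a regulatory one) and the 2-oxoglutarate dehydrogenase complex (OGDH is its first component) carry out the oxidative decarboxylations. Succinyl-CoA ligase (SUCLG1 is its alpha subunit), succinate dehydrogenase (SDHA is the flavoprotein and SDHB the iron-sulphur subunit), fumarase (FH) and mitochondrial malate dehydrogenase (MDH2) then regenerate oxaloacetate. In adipocytes, citrate is also exported to the cytosol, where it can supply carbon for fatty acid synthesis. In ruminants acetate is a main carbon source for that synthesis.

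The tissue was taken from the dewlap of primiparous Holstein cows, with 3 libraries in each of 5 groups. The prepartum group was sampled 1 month before calving, before the experimental diets. The cows of the other groups had received a diet of high energy content (HE) or of low energy content (LE) from 1 month before calving and were sampled 1 week or 16 weeks after calving. The labels group the samples by diet, while the study describes its sequenced cows as those with the most extreme severe or moderate negative energy balance at 1 week. The labels do not give the energy balance of a sample, and a contrast of HE with LE is a contrast of selected animals. The study took biopsies from each animal at all 3 times, so libraries of different times may come from the same cows. The labels do not say which, and the tests between times treat the libraries as independent. The same 3 prepartum libraries served as the reference for HE and for LE, so the comparisons with them are not independent of each other. The sample titles carry a mark, m1 or m2, of which the meaning is not given. Prepartum, HE at 1 week and LE at 16 weeks carry m1, and the mark cannot be told apart from the group in any comparison other than prepartum against HE at 1 week.

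The read counts of the 15 libraries were recovered from the mean counts in the tables, for reads on exons (exon counts) and for reads on exons and introns together (whole gene counts). Which cow a library came from could not be recovered, so the libraries of a group are called a, b and c in order of decreasing depth, and a letter links nothing between groups. A normalised count is a read count divided by the size factor of its library, computed over the 15 libraries. Log2 differences are given as first group minus second group, with the scale of each comparison taken from its own 6 libraries. A gene was called when its Benjamini-Hochberg adjusted p from limma was below 0.01 in the exon analysis and in the whole gene analysis, with the same sign.

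The HE libraries stood apart in depth, taken here as the reads counted on exons. The study lists total reads of similar size for all its libraries. It lists lower aligned shares for its libraries of moderate negative energy balance than for its other libraries. The labels do not say whether those are the HE libraries. Libraries b and c of HE held 1943411 to 2770780.0 exon reads over the 2 times, library a of HE held 6736133 to 7204276, and the 9 other libraries held 7291896 to 13733667. Added spike-in RNA gave 88.8 to 247 reads per 1000 exon reads in libraries b and c of HE, 30.0 to 36.7 in library a of HE, and 1.92 to 16.2 elsewhere. The tissue label was checked with adipocyte genes: PLIN1 (perilipin of the lipid droplet) had group means of 6903 to 22495 normalised exon counts, and ADIPOQ is not in the tables. The summed level of the 8 recovered adipocyte markers was 20438 to 58339.5 in HE at 1 week and 12973 to 49710.5 in HE at 16 weeks. It was 55783 to 68483 before calving, 53251 to 76243 in LE at 1 week and 45608 to 53032 in LE at 16 weeks. The 8 markers did not move together. LPL had means of 20478 before calving, 763 in HE at 1 week and 2886 in LE at 1 week. LIPE, PNPLA2 and CD36 had higher means in HE at 1 week (6830, 2837 and 15103) than before calving (3497, 1964 and 13882.5), and the others had lower means. The summed level of 10 skeletal muscle markers was 1182 to 4101 in HE at 1 week, 1703 to 3804 in HE at 16 weeks and at most 363 in any other library. Most of it was TNNT3 (fast troponin T), with means of 2203 and 2823 in HE, while the defining genes ACTA1 and MYH1 were low. Their means were nonetheless highest in HE at 1 week, at 31.9 and 33.4 against 5.40 and 7.18 before calving and 0.926 and 0 in LE at 1 week, and MYLPF had 4.83 in HE at 1 week and 0 before calving. Summed mast cell markers were 249 to 437 and 247 to 455 in HE at 1 and 16 weeks, against 2754 to 4389 before calving and 1132 to 3062 and 2001 to 2479 in LE. Summed macrophage markers were 7305 to 12093 before calving, 2301 to 8291 and 2345 to 2928 in HE, and 9833 to 19118 and 16112 to 20900.3 in LE. The fibroblast genes LUM and PDGFRA summed to 14093 to 19624 before calving, 2542 to 3285 and 1944 to 5721 in HE, and 8268 to 11854 and 14076 to 21684 in LE. The 8 endothelial markers summed to 20738 to 26788 before calving and to 33250.5 to 69387 and 29027 to 38313 in HE. In LE the sums were 32425 to 39798 and 24572 to 28108, so that the sums of HE at both times and LE at 1 week were above prepartum. In HE at 16 weeks the single genes differed, with VWF, EGFL7, TIE1 and CDH5 above their prepartum means and PECAM1, KDR, TEK and CLDN5 below. VWF had 17751 against 9695 before calving, and PECAM1 had 5564 against 6078. Summed lymphocyte, keratinocyte and erythrocyte markers of HE at 1 week were 348 to 1071, 61.5 to 735 and 17.7 to 349, and each range overlapped that before calving. In HE at 16 weeks lymphocyte markers were 383 to 509 and keratinocyte markers 100 to 149, below 988 to 1216 and 547 to 1275 before calving. Keratinocyte markers of LE at 16 weeks, at 141 to 271, were also below prepartum. Erythrocyte markers of HE at 16 weeks, at 21.5 to 83.9, overlapped prepartum. The part of depth, alignment, RNA input and cell composition in the results was not tested. In bulk tissue fewer cells of a type cannot be told apart from less RNA per cell.

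CS had the widest range of the 9 genes, with a highest group mean 3.28 times the lowest. The normalised exon counts of CS in libraries a, b and c were 1042, 895 and 963 before calving. They were 424, 192 and 268 in HE at 1 week, from 407, 71 and 73 reads. They were 611, 573 and 485 in HE at 16 weeks. In order of mean level the groups were prepartum, LE at 16 weeks, LE at 1 week, HE at 16 weeks and HE at 1 week. In LE the counts were 619, 752 and 571 at 1 week and 761, 723 and 729.8 at 16 weeks. The 3 prepartum libraries were above all others and the 3 libraries of HE at 1 week below all others, while the other 3 groups overlapped with their neighbours in the order.

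The IDH3 subunits had different orders of group means. The normalised exon counts of IDH3B were 756, 945 and 664 before calving, 379, 367 and 401 in HE at 1 week and 448, 578 and 376 in HE at 16 weeks. They were 573, 683 and 493 in LE at 1 week and 683, 638 and 656 in LE at 16 weeks. The prepartum and LE libraries of IDH3B overlapped, and within each time the 3 LE libraries were above the 3 HE libraries. For IDH3A the values were 485, 392 and 467 before calving, 348, 375 and 265 in HE at 1 week and 513, 321 and 490.1 in HE at 16 weeks. They were 319, 270.3 and 406 in LE at 1 week and 523, 346 and 318 in LE at 16 weeks. Every neighbouring pair of groups in the order of IDH3A means overlapped.

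OGDH had a different order from CS, with higher exon means in HE than in LE at both times. On whole gene counts the mean at 1 week was instead lower in HE, at 2955 ± 391 against 3155 ± 239 in LE (SD, n = 3). The normalised exon counts of OGDH were 2220.3, 2132 and 2026 before calving and 1817, 1750.3 and 2259.9 in HE at 1 week. They were 2054, 1311 and 2058 in HE at 16 weeks, 1783, 2079 and 1394 in LE at 1 week and 1330.0, 1204 and 1650.0 in LE at 16 weeks. Neighbouring groups overlapped throughout, and the highest single value of OGDH was that of library c of HE at 1 week.

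SUCLG1 encodes the alpha subunit of succinyl-CoA ligase. Its normalised exon counts were 843, 806 and 733 before calving, 305, 384 and 382 in HE at 1 week and 408, 434 and 412 in HE at 16 weeks. They were 624, 693 and 492 in LE at 1 week and 630.2, 545 and 645 in LE at 16 weeks. The 6 HE libraries were below the 6 LE libraries, and these below the 3 prepartum libraries. FH had the same order of group means. Its values were 753, 665 and 710.0 before calving, 378, 308 and 331 in HE at 1 week and 415, 563 and 384 in HE at 16 weeks. In LE they were 512, 623 and 558 at 1 week and 575, 616 and 621 at 16 weeks, and the 3 libraries of HE at 1 week were the lowest of all.

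Both succinate dehydrogenase subunits had the highest mean before calving and the lowest in HE at 1 week. Mean normalised exon counts of SDHA were 2468 ± 239 (SD, n = 3) before calving, 1507 ± 299 in HE at 1 week and 1647 ± 200.1 in LE at 1 week. For SDHB they were 1359 ± 401, 725 ± 61.0 and 1161 ± 210.1. At 16 weeks SDHA was at 1567 ± 215 in HE and 1742 ± 76.4 in LE, and SDHB at 973 ± 211 and 1272 ± 54.8. MDH2 had means of 626 ± 43.1 before calving, 403 ± 124 and 459 ± 17.3 at 1 week in HE and LE, and 572 ± 85.5 and 527 ± 71.0 at 16 weeks. The spread of MDH2 in HE at 1 week came from library a, at 543 against 357 and 309 in libraries b and c.

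**Figure D1:**
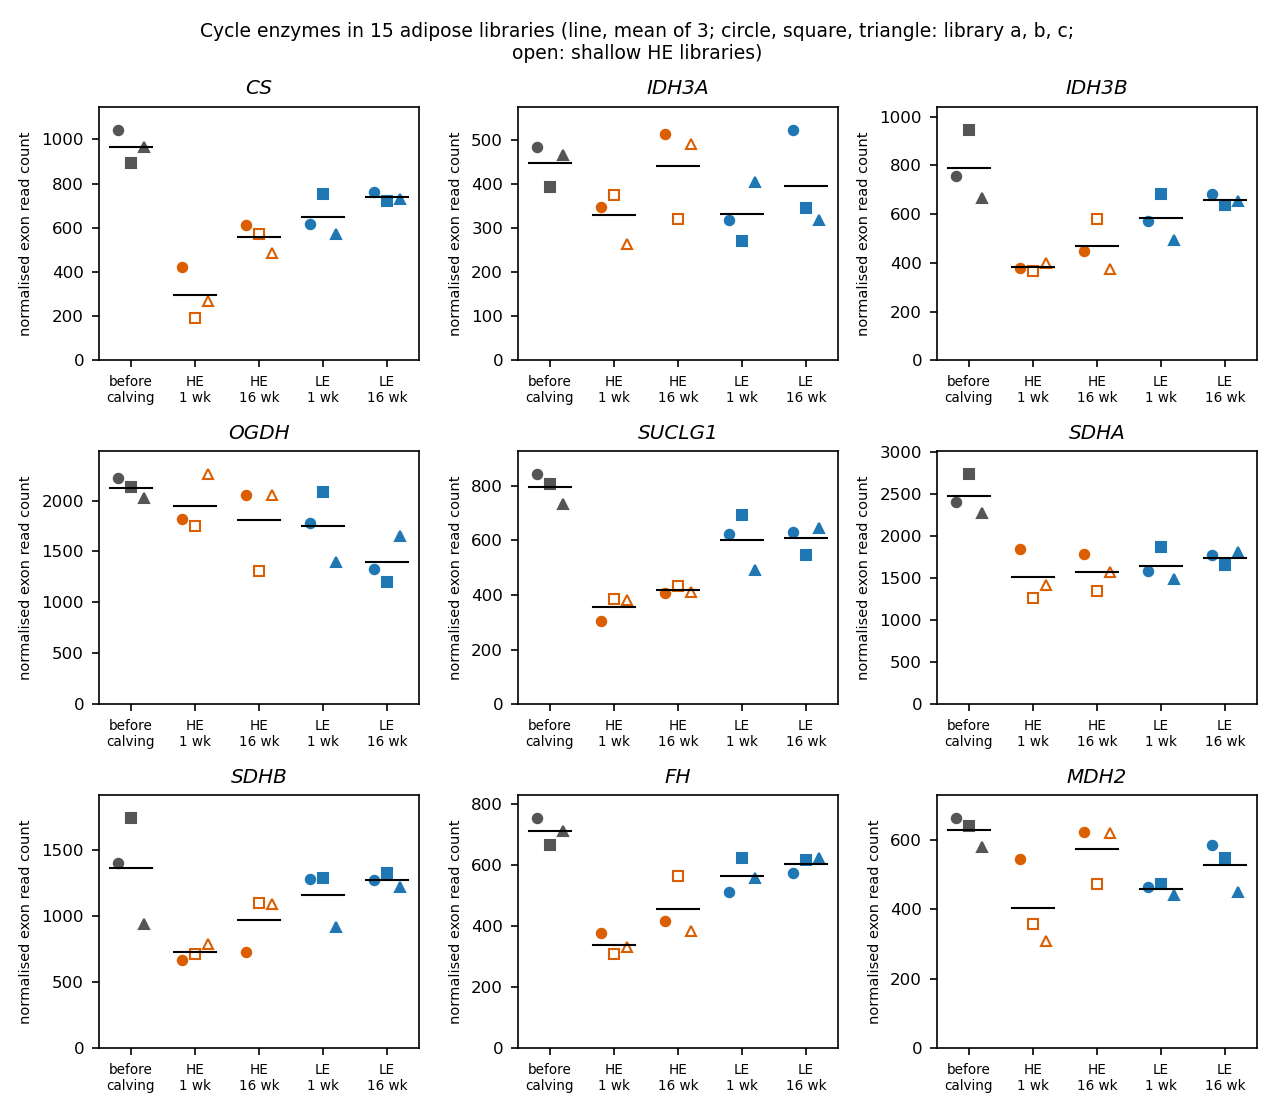
Normalised exon read counts of the 9 cycle genes (vertical axes, each from 0) in the 5 groups, 1 symbol per library and a line at the mean of 3; open symbols are the shallow HE libraries b and c. For CS the prepartum libraries lie at 1042, 895 and 963 and those of HE at 1 week at 424, 192 and 268, while OGDH overlaps between neighbouring groups.

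From before calving to 1 week in HE, 9 of 9 members had a positive exon log2 difference (prepartum minus 1 week), against 47.4% of all 13206 genes tested. The largest was CS at 1.80 ± 0.29 (SE; adjusted p = 0.0022), followed by SUCLG1 at 1.17 ± 0.19 (SE; adjusted p = 0.0024), FH at 1.08 ± 0.19 (SE; adjusted p = 0.0036) and IDH3B at 1.05 ± 0.20 (SE; adjusted p = 0.0059). These 4 members passed the limma test on exon counts, and 5.5% of all genes passed it in this direction. On whole gene counts the same genes gave 1.27 ± 0.25 (SE; adjusted p = 0.027) for CS, 0.70 ± 0.16 (SE; adjusted p = 0.041) for SUCLG1, 0.80 ± 0.19 (SE; adjusted p = 0.052) for FH and 1.01 ± 0.27 (SE; adjusted p = 0.07) for IDH3B. No member was therefore called by both analyses, where 175 genes (1.33%) were called. At an unadjusted exon p below 0.05 there were 7 members, against 34.5% of all genes, and with limma-voom 7, against 34.3%, also with no member called in both analyses. At an adjusted p below 0.05 in both analyses CS and SUCLG1 passed, against 3.45% of all genes in this direction.

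The other members of this comparison did not pass. SDHB gave 0.88 ± 0.25 (SE; adjusted p = 0.029), SDHA 0.74 ± 0.22 (SE; adjusted p = 0.036), MDH2 0.69 ± 0.25 (SE; adjusted p = 0.076) and IDH3A 0.47 ± 0.22 (SE; adjusted p = 0.17). OGDH was lowest at 0.16 ± 0.19 (SE; adjusted p = 0.61), with a 95% interval from -0.28 to 0.59. The prepartum exon counts did not overlap those of HE at 1 week and were higher for 8 members, all but OGDH, against 19.1% of all genes in this direction. In both analyses the groups were apart for CS, IDH3B, SUCLG1 and FH, against 12.4% of all genes in this direction. In the whole gene analysis the members that did not pass on exon counts lay between 0.078 (OGDH) and 0.57 (SDHA). The median exon log2 difference of the members was 0.88, that of all genes -0.066 and that of genes with a mean of at least 100 normalised exon counts 0.061.

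The result differed in a fit of the 15 libraries together, which also set 1 scale for them (a median shift of -0.019) and tested 13300 genes. In it, CS, SUCLG1 and IDH3B were called in both analyses, with exon adjusted p of 4.7e-05, 8.8e-05 and 0.00063 and whole gene adjusted p of 0.00037, 0.0022 and 0.0078. In that limma fit 8.77% of genes were called. Against library a of HE alone, the deepest, the exon log2 differences were 1.17 for CS, 1.36 for SUCLG1, 0.89 for FH and 1.02 for IDH3B. The corresponding limma adjusted p were 0.028, 0.022, 0.048 and 0.067, under the assumption that the lone library varies like the prepartum ones. MDH2 had 0.19 against library a alone, and SDHA 0.40. Without library a of HE, CS was called at an exon difference of 2.12, as 1 of 347 genes in all. HE then consisted of the shallow libraries b and c, which held 71 and 73 exon reads of CS.

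From before calving to 1 week in LE, 9 of 9 members again had a positive exon log2 difference, against 52.7% of 13085 genes, and none was called. Both analyses called 16 genes (0.122%). SDHA gave 0.59 ± 0.16 (SE; adjusted p = 0.13) and CS 0.58 ± 0.16 (SE; adjusted p = 0.13), and the other 7 lay between 0.20 (SDHB) and 0.45 (IDH3A and MDH2). At an unadjusted exon p below 0.05 there were 6 members with limma and 4 with limma-voom, against 13.6% and 13.1% of all genes. The groups did not overlap in the exon counts of 5 members (CS, SUCLG1, SDHA, FH and MDH2), against 9.81% of all genes in this direction. The median was 0.43 for the members, 0.029 for all genes and -0.048 for genes with a mean of at least 100. On whole gene counts the signs of OGDH (-0.058) and SDHB (-0.023) were negative. For CS the difference was 1.80 in HE and 0.58 in LE, and for OGDH 0.16 and 0.30. These pairs share the prepartum libraries, and LE was also compared with HE at 1 week directly.

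From 1 to 16 weeks no gene was called by limma in either diet group, in the exon or in the whole gene analysis, and limma-voom called none either. In HE, CS gave -0.99 ± 0.30 (SE; adjusted p = 0.3) on exon counts and -0.73 ± 0.23 (SE; adjusted p = 0.35) on whole gene counts (1 week minus 16 weeks), and the libraries of the 2 times were apart in both analyses, as in 5.67% of all genes in this direction. On exon counts SUCLG1 was also apart, against 8.06% of all genes in this direction, and on whole gene counts IDH3A and IDH3B were, against 9.41%. CS was the only member with an unadjusted exon p below 0.05 with limma or limma-voom, against 12.3% and 10.5% of all genes. The lower CS level in HE at 1 week than at 16 weeks did not pass the test after adjustment. The members' median was -0.41, that of all genes 0.12 and that of genes with a mean of at least 100 normalised exon counts -0.034. MDH2 gave -0.54 ± 0.26 (SE; adjusted p = 0.42), and OGDH had the only positive exon difference, at 0.11. In LE the differences ranged from -0.26 (IDH3A) to 0.30 (OGDH), with a median of -0.17 for the members, -0.039 for all genes and -0.017 for genes with a mean of at least 100. No member had an unadjusted exon p below 0.05 in LE, against 6.83% of all genes with limma and 6.56% with limma-voom. The 95% interval of CS in LE was -0.56 to 0.12 and that of OGDH -0.14 to 0.75. The whole gene difference of OGDH in LE was 0.49, with an interval of 0.054 to 0.93 (limma adjusted p = 0.8, unadjusted p = 0.032), and the libraries of the 2 times were apart. Of all genes 6.1% had such a whole gene p below 0.05, and 5.43% were apart in this direction.

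The diet groups at 1 week were compared as LE minus HE. The exon log2 difference was 1.22 ± 0.30 (SE; adjusted p = 0.028) for CS, 0.77 ± 0.22 (SE; adjusted p = 0.046) for SUCLG1, 0.76 ± 0.20 (SE; adjusted p = 0.041) for FH, 0.69 ± 0.20 (SE; adjusted p = 0.056) for SDHB and 0.62 ± 0.20 (SE; adjusted p = 0.077) for IDH3B. The whole gene differences were 0.87 (limma adjusted p = 0.086) for CS, 0.46 (0.12) for SUCLG1, 0.61 (0.097) for FH, 0.50 (0.17) for SDHB and 0.66 (0.12) for IDH3B. None of them passed the threshold. Both limma analyses together called 0 genes of 13100, limma-voom called 0, and 31.4% of all genes had an unadjusted exon p below 0.05, as had 5 members. For these 5 genes the LE and HE libraries were apart in both analyses, against 11.2% of all genes in this direction. IDH3A (0.031), SDHA (0.17), MDH2 (0.25) and OGDH (-0.13) overlapped between the groups. The interval of OGDH was -0.63 to 0.36 and that of IDH3A -0.53 to 0.59. Against library a of HE alone, with the spread taken from the LE libraries, CS gave 0.60 (adjusted p = 0.26, limma), SUCLG1 0.97 and FH 0.57, while SDHA, MDH2 and IDH3A were negative at -0.16, -0.24 and -0.087. Without library a of HE, CS was called, at an exon difference of 1.53, as 1 of 1034 genes in all.

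At 16 weeks, LE minus HE gave the largest exon difference for SUCLG1, at 0.54 ± 0.15 (SE; adjusted p = 0.034), then IDH3B at 0.53 ± 0.18 (SE; adjusted p = 0.076), FH at 0.44 ± 0.18 (SE; adjusted p = 0.12) and CS at 0.42 ± 0.15 (SE; adjusted p = 0.083). SDHB gave 0.42 ± 0.19 (SE; adjusted p = 0.16). Whole gene differences were smaller, at 0.29 (limma adjusted p = 0.28) for SUCLG1, 0.40 (0.19) for IDH3B, 0.32 (0.41) for FH, 0.19 (0.47) for CS and 0.26 (0.41) for SDHB. No member was called, while 308 genes (2.37%) were. The unadjusted exon p was below 0.05 for 4 members with limma and 4 with limma-voom, against 31.8% and 35.2% of all genes. Exon counts did not overlap and were higher in LE for 5 members (the same 5 genes as at 1 week), against 18.6% of all genes in this direction, and in both analyses for IDH3B and SUCLG1, against 12.2% in this direction. The differences of OGDH (-0.35), IDH3A (-0.15) and MDH2 (-0.11) were negative and that of SDHA was 0.17. Against library a of HE alone the largest exon difference was that of SDHB, at 0.81. SUCLG1 gave 0.58, IDH3B 0.57, FH 0.55 and CS 0.28, while OGDH gave -0.56, IDH3A -0.40, MDH2 -0.24 and SDHA -0.022.

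The change from 1 to 16 weeks was compared between LE and HE directly. The difference of the changes was 0.79 ± 0.34 (SE; adjusted p = 0.69) for CS, with an unadjusted p of 0.037, and lay between -0.019 (SDHA) and 0.35 (MDH2) for the other members. No gene of 13229 was called by limma or limma-voom. CS was the only member with an unadjusted exon p below 0.05 with limma, and no member had one with limma-voom. Of all genes, 7.07% had one with limma and 4.56% with limma-voom.

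**Figure D2:**
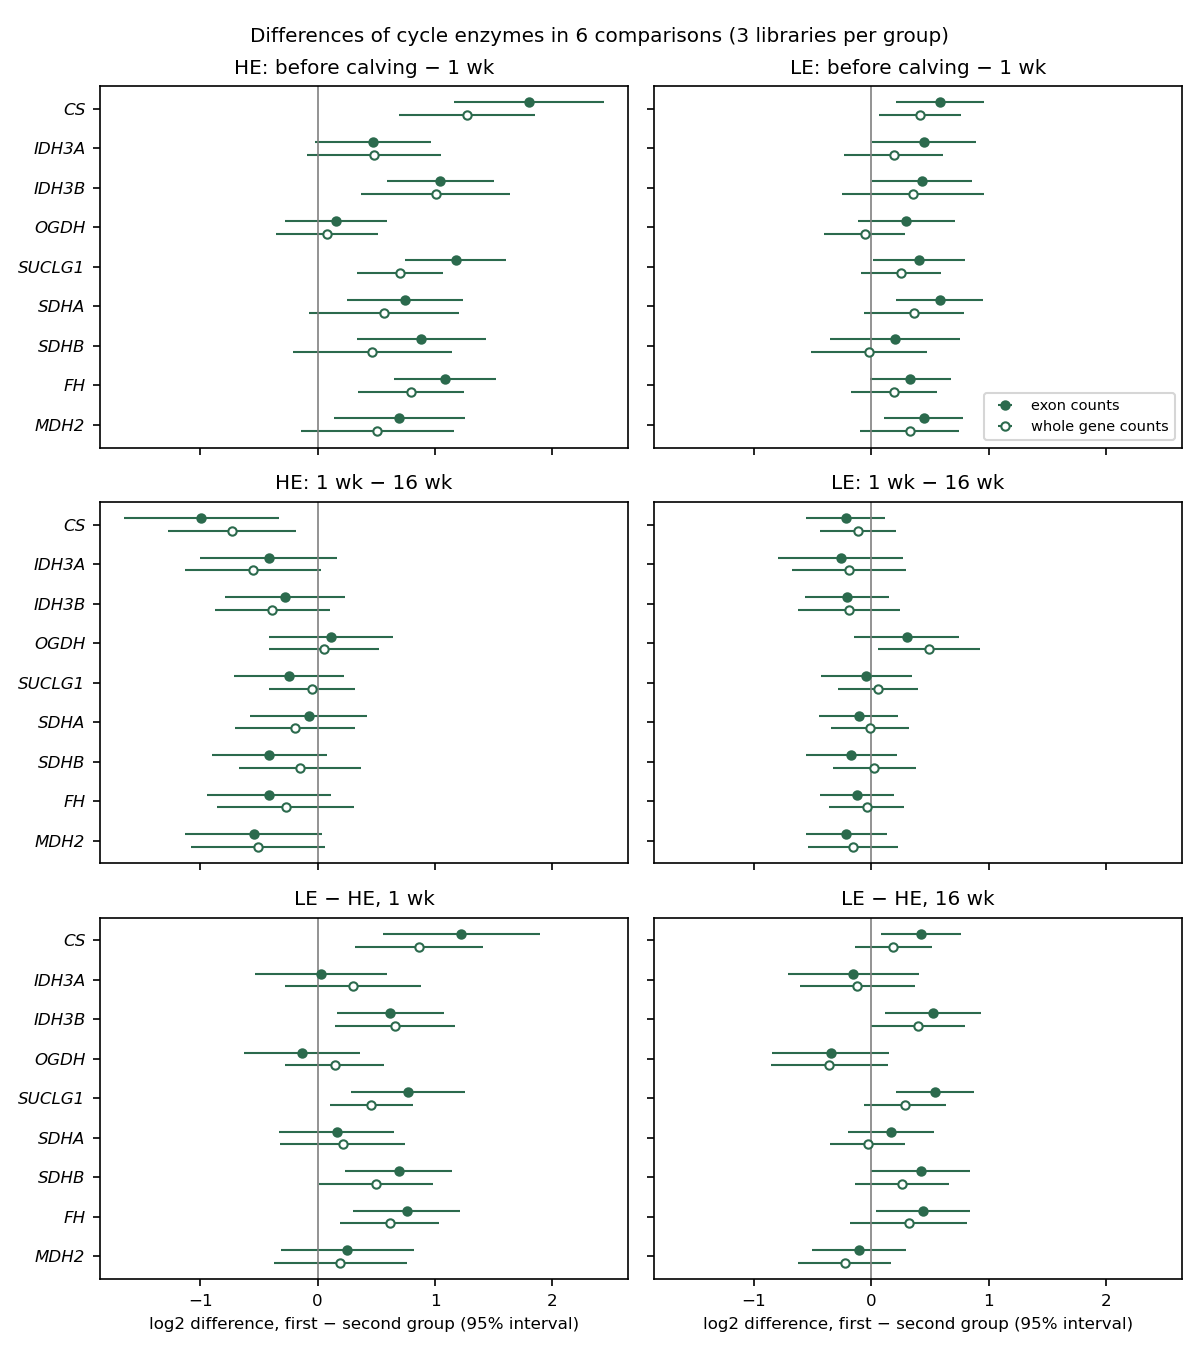
Log2 differences (first minus second group, horizontal axes) of the 9 genes in 6 comparisons of 3 libraries with 3, with 95% intervals from limma; filled points are exon counts and open points whole gene counts. CS reaches 1.80 for prepartum minus 1 week in HE and 1.22 for LE minus HE at 1 week, and the intervals of OGDH on exon counts include 0 in all 6.

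Ratios of members within a library do not depend on the scaling between libraries. They were chosen after the levels were seen and are given as a description. OGDH exon reads per CS exon read were 2.13, 2.38 and 2.10 before calving and 4.28, 9.13 and 8.42 in libraries a, b and c of HE at 1 week. They were 3.36, 2.29 and 4.25 in HE at 16 weeks, 2.88, 2.77 and 2.44 in LE at 1 week and 1.75, 1.67 and 2.26 in LE at 16 weeks. The 3 libraries of HE at 1 week thus held the highest ratios of the 15, with the deep library a nearest to the others. SUCLG1 reads per OGDH read ranged from 0.168 to 0.219 in HE at 1 week and 0.199 to 0.331 in HE at 16 weeks, below 0.362 to 0.379 before calving and 0.334 to 0.353 in LE at 1 week. With whole gene counts HE at 16 weeks overlapped LE at 1 week in this ratio, at 0.238 to 0.363 and 0.313 to 0.355. CS reads per IDH3A read ranged from 2.06 to 2.28 before calving and 0.511 to 1.22 in HE at 1 week. The range was 0.989 to 1.78 in HE at 16 weeks, which overlapped HE at 1 week. In LE it was 1.41 to 2.78 at 1 week and 1.46 to 2.29 at 16 weeks. The value of 0.511 came from library b, with 71 CS reads.

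IDH3A reads per IDH3B read ranged from 0.415 to 0.703 before calving, 0.661 to 1.02 in HE and 0.396 to 0.823 in LE at 1 week, and these groups overlapped. SDHA reads per SDHB read ranged from 1.57 to 2.42, 1.76 to 2.75 and 1.24 to 1.62 in the same groups, where HE and LE were apart and prepartum overlapped both. On whole gene counts HE and LE overlapped, at 1.24 to 1.32 and 0.910 to 1.25. All 9 genes together made up 1373 to 1492 reads per 1000000 exon reads before calving and 841 to 955 in HE at 1 week. The sum was 941 to 1076 in HE at 16 weeks, 990.4 to 1241 in LE at 1 week and 1065 to 1167 in LE at 16 weeks. CS was 8.17 to 10.3% of that sum before calving and 3.36 to 6.33% in HE at 1 week, and OGDH 19.5 to 21.7% and 27.1 to 35.2%. These shares carry gene length and say nothing of which transcript was more abundant.

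**Figure D3:**
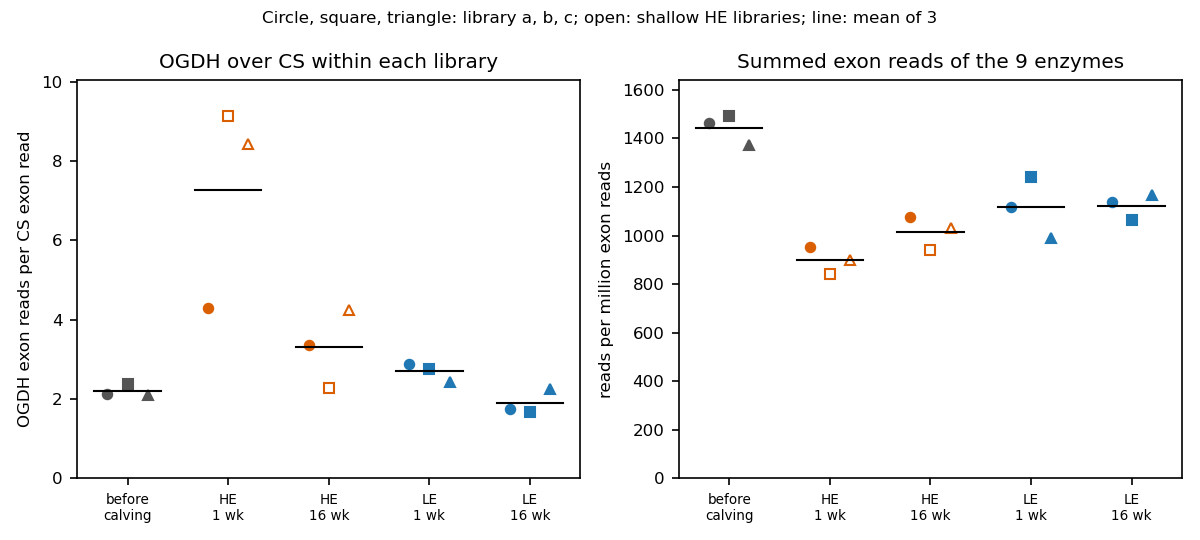
Left, OGDH exon reads per CS exon read in each library; right, summed exon reads of the 9 genes per 1000000 exon reads, both axes from 0, with a line at the mean of 3 and open symbols for the shallow HE libraries. The ratio is 4.28, 9.13 and 8.42 in HE at 1 week and 2.10 to 2.38 before calving, and the sum in HE at 1 week lies at 841 to 955.

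Exon and whole gene counts of a gene differ by its reads outside exons. For CS these were 27.3%, 24.3% and 32.9% of whole gene reads in libraries a, b and c before calving and 40.7%, 59.4% and 40.2% in HE at 1 week. They were 29.3%, 36.6% and 27.5% in HE at 16 weeks, so that HE at 1 week was above both groups. In LE they were 33.4%, 25.3% and 42.2% at 1 week and 34.2%, 31.5% and 26.0% at 16 weeks, which overlapped with each other. SUCLG1 and FH were likewise higher in HE at 1 week than at 16 weeks, with means of 53.3% against 41.8% and 41.2% against 28.8%, and no overlap. For IDH3A and IDH3B the share was higher in LE than in HE at both times, for IDH3A with means of 43.2% against 29.8% at 1 week and 41.8% against 29.9% at 16 weeks. Over all genes the mean share was also higher in LE, at 53.4% against 48.8% at 1 week, where the groups overlapped, and 53.9% against 46.2% at 16 weeks, where they did not. Over all genes the share was 53.2%, 46.9% and 60.8% before calving and 52.9%, 47.0% and 46.5% in HE at 1 week. The shares are given as a description, and no test of them was made.

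**Figure D4:**
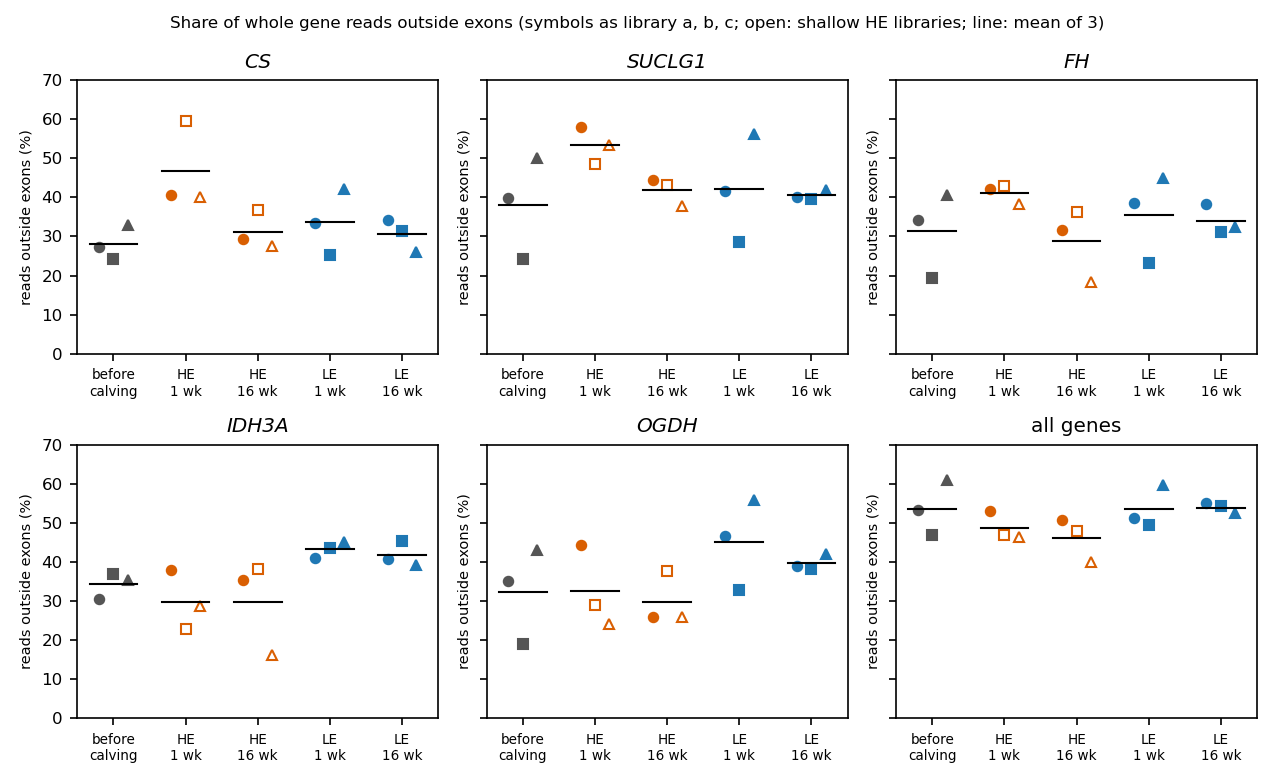
Share of whole gene reads that lie outside exons (%, axes from 0) for 5 cycle genes and for all genes, 1 symbol per library, with a line at the mean of 3 and open symbols for the shallow HE libraries. CS lies at 40.7%, 59.4% and 40.2% in HE at 1 week and at 27.3%, 24.3% and 32.9% before calving, while all genes lie at 52.9%, 47.0% and 46.5% and 53.2%, 46.9% and 60.8%.

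Of the 12 other genes of the cycle and its cytosolic counterparts, none was called in any comparison. In HE, prepartum minus 1 week, their median exon log2 difference was 0.90, 11 of 12 were positive, and 3 passed the test on exon counts alone. These were IDH1, the cytosolic isocitrate dehydrogenase that yields NADPH, at 2.01 ± 0.21 (adjusted p = 0.00036; whole gene 1.67, adjusted p = 0.013), MDH1, the cytosolic malate dehydrogenase, at 1.86 ± 0.23 (adjusted p = 0.00081; whole gene 1.13, adjusted p = 0.012), and SUCLG2, a beta subunit of succinyl-CoA ligase, at 0.87 ± 0.19 (adjusted p = 0.009; whole gene 0.71, adjusted p = 0.1). The negative gene was IDH2, the mitochondrial NADP-dependent isocitrate dehydrogenase, at -0.94 ± 0.23 (adjusted p = 0.017; whole gene -0.69, adjusted p = 0.11). In LE minus HE at 16 weeks IDH2 was the gene of this list that passed on exon counts, at -0.87 ± 0.16 (adjusted p = 0.0071; whole gene -0.79, adjusted p = 0.028). The list medians were 0.27 for LE, prepartum minus 1 week, -0.36 and -0.032 for 1 minus 16 weeks in HE and LE, and 0.56 and 0.31 for LE minus HE at 1 and 16 weeks.

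Genes that feed the cycle or use its citrate included called ones. In HE, prepartum minus 1 week, 2 of 7 genes of pyruvate entry were called. They were MPC1, a subunit of the mitochondrial pyruvate carrier, at 2.30 ± 0.21 (adjusted p = 0.00021; whole gene 2.02, adjusted p = 0.0084), and PDHA1, the E1 alpha subunit of pyruvate dehydrogenase, at 1.74 ± 0.19 (adjusted p = 0.00043; whole gene 1.49, adjusted p = 0.0097). Of 12 carriers and enzymes that move cycle intermediates, 3 were called. These were PCK2, the mitochondrial phosphoenolpyruvate carboxykinase, at 3.33 ± 0.34 (adjusted p = 0.00033; whole gene 3.17, adjusted p = 0.0097), SLC25A1, the citrate carrier, at 2.35 ± 0.24 (adjusted p = 0.00036; whole gene 2.24, adjusted p = 0.0079), and ACLY, ATP citrate lyase, at 2.16 ± 0.27 (adjusted p = 0.00075; whole gene 1.93, adjusted p = 0.0097). Each of these 5 calls was kept in 1 of the 6 fits that left out a library, the fit without HE library a, and was lost in the other 5. On exon counts alone PDHB, the E1 beta subunit of pyruvate dehydrogenase (1.23), ME1, the cytosolic malic enzyme (1.68), and GLUD1, glutamate dehydrogenase (0.96), also passed. In LE, prepartum minus 1 week, none of the 19 genes was called. SLC25A1, at 2.33 ± 0.20 (adjusted p = 0.00098; whole gene 2.24, adjusted p = 0.012), and MPC1, at 1.36 ± 0.19 (adjusted p = 0.0082; whole gene 0.83, adjusted p = 0.092), passed on exon counts alone. In LE minus HE at 16 weeks PC, pyruvate carboxylase, which makes oxaloacetate, was called, at -1.65 ± 0.29 (adjusted p = 0.0058; whole gene -1.49, adjusted p = 0.0097), and the call was lost in each of the 6 fits that left out a library. The medians in HE, prepartum minus 1 week, were 0.90 for pyruvate entry and 1.06 for the carriers, and in LE they were 0.38 and 0.24.

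Other mitochondrial genes were compared in the same way. Of 15 mitochondrial housekeeping proteins none was called in any comparison, and the median in HE, prepartum minus 1 week, was 0.57 with 11 of 15 positive. HSPA9 (1.42), VDAC1 (1.06) and VDAC3 (1.02) passed on exon counts alone. Of 8 regulators of mitochondrial number, POLRMT, the mitochondrial RNA polymerase, was called, at -2.29 ± 0.26 (adjusted p = 0.00054; whole gene -2.03, adjusted p = 0.0073), with the sign opposite to the 9 members, and the list median was -0.071. On exon counts alone POLRMT also passed in LE minus HE at 1 week (-1.62) and 16 weeks (-1.41), and LONP1, the mitochondrial Lon protease, at 16 weeks (-0.85). Of 3 assembly factors of succinate dehydrogenase none was called, and their median was 0.97. In the same comparison 2 of 6 tested adipocyte markers were called, CIDEC at 2.37 ± 0.22 (adjusted p = 0.00023; whole gene 2.26, adjusted p = 0.0056) and LPL, lipoprotein lipase, at 4.77 ± 0.35 (adjusted p = 8.2e-05; whole gene 4.52, adjusted p = 0.0038), with a list median of 1.61. Of the markers of other cell types, PDGFRA (fibroblasts) was called at 2.42 ± 0.23 (adjusted p = 0.00025; whole gene 2.26, adjusted p = 0.0062) and KIT (mast cells) at 3.14 ± 0.27 (adjusted p = 0.00016; whole gene 2.28, adjusted p = 0.0095). The calls of POLRMT, CIDEC, LPL, PDGFRA and KIT were likewise kept in 1 of 6 such fits, the one without HE library a. Of the 6 tested adipocyte markers, 4 had a positive exon difference in HE, prepartum minus 1 week. LIPE and PNPLA2 went the other way, with mean normalised exon counts of 3497 and 1964 before calving and 6830 and 2837 in HE at 1 week. In LE, prepartum minus 1 week, the called marker genes were the hair keratins KRT85 and KRT31, with mean normalised exon counts of 183 and 199 before calving and 0 reads of either in the 3 libraries of LE at 1 week. In LE minus HE at 16 weeks, with exon log2 differences in parentheses, they were the macrophage genes CD163 (3.29), CSF1R (1.98) and MSR1 (2.88), the mast cell genes CPA3 (4.12) and KIT (2.53), the leukocyte gene PTPRC (1.56) and the endothelial gene EGFL7 (-1.29). Each of these calls was lost in at least 2 of the 6 fits that left out a library. Of the 8 endothelial markers, 5 had a positive exon difference in LE minus HE at 16 weeks, opposite to EGFL7, and the list median was 0.099. The part of these cell types in the members' differences was not tested.

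**Figure D5:**
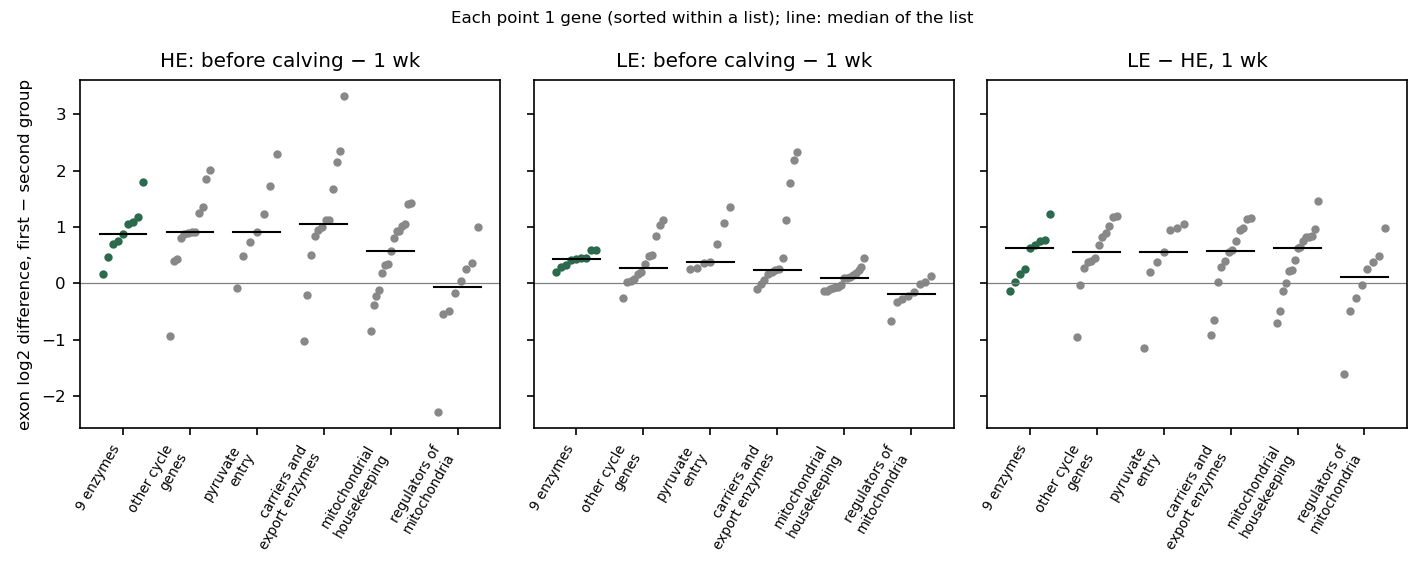
Exon log2 differences (vertical axis) of the 9 cycle genes and of genes of 5 other lists in 3 comparisons, 1 point per gene and a line at the median of the list. In HE, prepartum minus 1 week, the medians are 0.88 for the 9 genes and -0.071 for the regulators of mitochondria. The first and second panels share the prepartum libraries.

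Over the 15 libraries the members did not all follow each other. The Pearson correlations of their log2 exon levels between pairs of members ranged from -0.17 to 0.93, with a median of 0.52 over 36 pairs. Each gene's correlation with the mean of the 8 others was 0.91 for CS and between 0.68 and 0.87 for IDH3B, SUCLG1, SDHA, SDHB, FH and MDH2. It was 0.27 for IDH3A and 0.021 for OGDH. Among 8006 genes with a mean of at least 100 normalised exon counts, those most like the mean profile of the members, outside the cycle, were PDHA1 (r = 0.97), ATP5A1 (0.96), RTN4 (0.96), ATP5G3 (0.95) and COX6A1 (0.95). ATP5A1 and ATP5G3 encode subunits of ATP synthase and COX6A1 a subunit of cytochrome c oxidase. The 15 points share groups, cows chosen for energy balance and the depth differences of HE.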

How the data were processed

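Total RNA of 15 adipose samples was sequenced by the authors from stranded, ribosomal RNA-depleted libraries, trimmed with Cutadapt 1.3 after bcl2fastq 2.15.0, aligned to bosTau8 with TopHat2, counted per gene with htseq-count and compared with DESeq2. The strand setting of the counting is not given in the sources used here. The 6 deposited tables, 1 per comparison of 3 libraries with 3, hold 13988 rows (13896 genes and 92 spike-ins). They give, for exons and for whole genes, the authors' mean normalised count over 6 libraries and their own log2 fold changes, standard errors, test statistics and p-values. Those columns of the authors' comparisons were not used. Only the 12 columns of mean normalised counts, a value of other kind than a read count, were used as deposited, and 0 columns belonged to other samples.

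The means are printed to 15 digits and each is a sum of whole reads divided by size factors. The size factors and the counts of the 15 libraries were solved from them by lattice reduction. Counts were accepted for 13881 genes on exons and 13869 on whole genes. The 15 and 27 others were left out. The 86 of 92 spike-ins that could be solved were equal in all 15 libraries between the separate solutions for exons and whole genes. Of 204510 values, 98.144% had a whole gene count at least as high as the exon count. On simulated data 2000 of 2000 genes were recovered on exons and 1998 of 2000 on whole genes, with the other 2 not accepted. These data were drawn around accepted genes and solved with the size factors that made them. They cannot show an error in those size factors. Which sample a solved library is was not recoverable, and depth is the total of solved counts.

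limma 3.58.1 (R 4.3.3) with a mean-variance trend was fitted to log2(normalised count + 1) of the 6 libraries of a comparison, for genes with at least 1 read, and p-values were adjusted by Benjamini-Hochberg over all genes. On counts simulated from LE and HE at 1 week (13382 genes) the exon test found 19 of 100 genes changed by 1 log2 unit and 99 of 100 changed by 2, with 0 false calls among 13236 unchanged genes. Differences near 1 log2 unit can therefore go uncalled. The simulation gave all genes and libraries the same spread, which was not estimated from these data, and changed only genes with a mean of at least 100. The genes found and the absence of false calls hold for that setting and for the exon test alone. They do not measure the rule that needs both analyses. Per the labels, RNA came from 3 cows per group, but no animal is named. Libraries of different times, which may share cows, were fitted as independent.

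Alternatives were limma-voom, a pseudocount of 8, a minimum mean of 10, total count or upper quartile scaling, 1 fit of 15 libraries, either analysis alone, an adjusted p below 0.05 and leaving out each library; HE library a alone was added after the data were seen. The members and lists were chosen with earlier results of these data known. Named genes were the 9 members, listed genes called in a comparison and the 5 most alike genes. Named outside that rule, after their values were seen, were IDH2 and listed genes that passed on exon counts alone. For the check of the tissue and cell types, PLIN1, ADIPOQ, LIPE, PNPLA2, CD36, TNNT3, ACTA1, MYH1, MYLPF and LUM were also named. The endothelial genes VWF, TIE1, CDH5, PECAM1, KDR, TEK and CLDN5 were named for the same reason. Scripts ran in Python 3.11.15 with sympy 1.14.0, pandas 2.3.3, matplotlib 3.10.9, scipy 1.17.1 and numpy 2.4.6.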

Additional observations from a re-analysis of the deposited data

How the results depend on the processing

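No member was called in 6 of the 7 results under any alternative that kept all libraries, the exception being HE, prepartum minus 1 week. There the number of called members was 3 with 15 libraries in 1 fit, 4 on exon counts alone and 2 at an adjusted p below 0.05, against 0. Leaving out a library gave 0 to 1 called members for this comparison and 0 to 1 for LE minus HE at 1 week, the 1 being CS without HE library a in both, and 0 to 0 for the other 5 results. The genes called in HE, prepartum minus 1 week, numbered 175, with 65 by limma-voom, 113 with a pseudocount of 8, 1166 with 15 libraries in 1 fit, 1522 on exon counts alone, 978 at an adjusted p below 0.05, 0 against HE library a alone and 0 to 347 without a library. The 16 genes called in LE, prepartum minus 1 week, became 0 to 131 without a library, 4 by limma-voom, 0 with a pseudocount of 8, 9 with a minimum mean of 10, 2 with either other scaling, 83 on exon counts alone and 83 at an adjusted p below 0.05. LE minus HE at 1 week went from 0 called genes to 382 with 15 libraries, 204 on exon counts alone, 236 at an adjusted p below 0.05 and 1034 without HE library a. LE minus HE at 16 weeks went from 308 to 145 with a pseudocount of 8, 522 with 15 libraries, 992 on exon counts alone, 1197 at an adjusted p below 0.05, 0 against HE library a alone and 0 to 121 without a library. The exon log2 differences of the 9 members in 7 results kept their sign in 1005 of 1035 alternative values. The tally includes the exon analysis alone, the adjusted p below 0.05 and the minimum mean of 10. Those settings leave a member's exon difference as it is, so its sign could not change there. The 30 that reversed were all of uncalled values. On whole gene counts they were SDHB (-0.022) and OGDH (-0.058) in LE, prepartum minus 1 week, SUCLG1 (0.058) and SDHB (0.026) in LE, 1 minus 16 weeks, OGDH (0.14) in LE minus HE at 1 week, SDHA (-0.032) in LE minus HE at 16 weeks and SDHA (0.20) in the difference of changes. SUCLG1 in LE, 1 minus 16 weeks, was 0.0075 with total counts as the scale, and IDH3A in LE minus HE at 1 week -0.0089 with limma-voom. With HE library a alone, IDH3A (-0.0875), SDHA (-0.16) and MDH2 (-0.24) in LE minus HE at 1 week, SDHA (-0.022) at 16 weeks and SDHB (-0.022) in the difference of changes reversed. The range without 1 library crossed 0 for OGDH (-0.092 to 0.23) and SDHA (-0.24 to 0.032) in HE, 1 minus 16 weeks, SUCLG1 (-0.14 to 0.10) in LE, 1 minus 16 weeks, IDH3A (-0.13 to 0.17) and OGDH (-0.27 to 0.017) in LE minus HE at 1 week, MDH2 (-0.24 to 0.0032) at 16 weeks, and IDH3B (-0.087 to 0.23) and SDHA (-0.13 to 0.13) in the difference of changes. The cause was not tested. HE, 1 minus 16 weeks, was not fitted with library a alone, since its own 2 libraries leave no residual spread and a fit with the spread of other groups was not run for it. No paired analysis was possible because the recovered libraries carry no replicate number and the labels name no cow, although the study sampled each animal at all 3 times.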
